A study of Ascaris suum with 62 samples.

Results

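The scaffolds described here are the small, wholly retained scaffolds of the pig roundworm *Ascaris suum*: 211 of the 600 scaffolds on which the deposited CENP-A tables place a peak. The extent of a scaffold was taken as its last peak end over all 12 tables. It can fall short of the scaffold's true length, which was not used here. Sizes and cover below refer to this extent. A scaffold was chosen if that extent lay between 50 and 400 kb and every peak on it, in every table, carried the authors' mark retained. The 211 scaffolds span 33.0 Mb, or 11.6% of 284 Mb in all, and hold 14696 of 163819 peaks, or 8.97%. Their extents run from 50.1 to 395 kb with a median of 135 kb.

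CENP-A replaces histone H3 in centromeric nucleosomes and carries the kinetochore, to which spindle fibres attach. *Ascaris* chromosomes are holocentric, which means that kinetochores form along their length and not at a single point. During early cleavage the cells that will form the soma break their chromosomes and lose part of the DNA (programmed DNA elimination), while the germline keeps all of it. DNA that stays in the soma is called retained, and DNA that is lost is called eliminated.

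CENP-A ChIP-seq, the sequencing of DNA recovered with this histone, was run on 12 stages, with 1 single-end and 1 paired-end library for each. The embryo stages were 0, 46 and 60 hours and 5 and 7 days of incubation at 30 °C, the 0-hour embryos being fertilized eggs from the final part of the uterus. The other stages were L1 larvae, the first larval stage, and tissue labelled ovary1 to ovary3 and testis1 to testis3; the labels do not say what these numbers stand for, and give no strain, age or treatment that separates the stages. Below, 0hr, 46hr and 60hr are called the hours lists, 5day, 7day and L1 the late lists, and the 6 ovary and testis lists the gonad lists. Each stage has 1 list of peaks, with the reads of both libraries in each peak, so a list gives 1 value and an SD is the spread of stages. Reads in peaks ran from 1005578 to 14901685 over 24 libraries, and the lists held 9197 to 21837 peaks, of which 766 (ovary2) to 1628 (0hr) lay on the small retained scaffolds. Cover is the percent of a scaffold's extent inside peaks. In samples of many cells, a peak held by fewer cells and a weaker peak held by all of them cannot be told apart.

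The small retained scaffolds carried less CENP-A cover than the 119 wholly retained scaffolds over 400 kb in every list. Their summed cover was 11.5, 11.5 and 13.6% at 0hr, 46hr and 60hr, and 22.7, 21.9 and 23.1% on the larger scaffolds. It was 11.5, 11.03 and 12.7% at 5day, 7day and in L1, and 18.9, 17.4 and 17.5% on the larger scaffolds. In the gonads it was lowest in ovary2 at 4.99% and highest in testis2 at 13.2%, and on the larger scaffolds lowest in testis3 at 7.41% and highest in testis2 at 18.9%. The ratio of small to larger scaffolds averaged 0.624-fold over the 12 lists, a mean log2 ratio of -0.68 ± 0.19 (SD, n = 12), and ran from 0.505 at 0hr to 0.757 in testis1. It was below 1 in 12 of 12 lists. A two-sided exact sign-flip test over the lists gave p = 0.000488, the smallest that 12 lists allow, and 0.00293 after Benjamini-Hochberg adjustment over the 6 tests of this kind. The lists include several stages of one tissue or of one course of development and are not independent of each other, which this test does not allow for. Extent, which sorts scaffolds into the groups and divides their covered length, also came from these peaks. The test is therefore not independent of how the groups were formed, and the effect of that on the ratio was not tested.

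**Figure D1:**
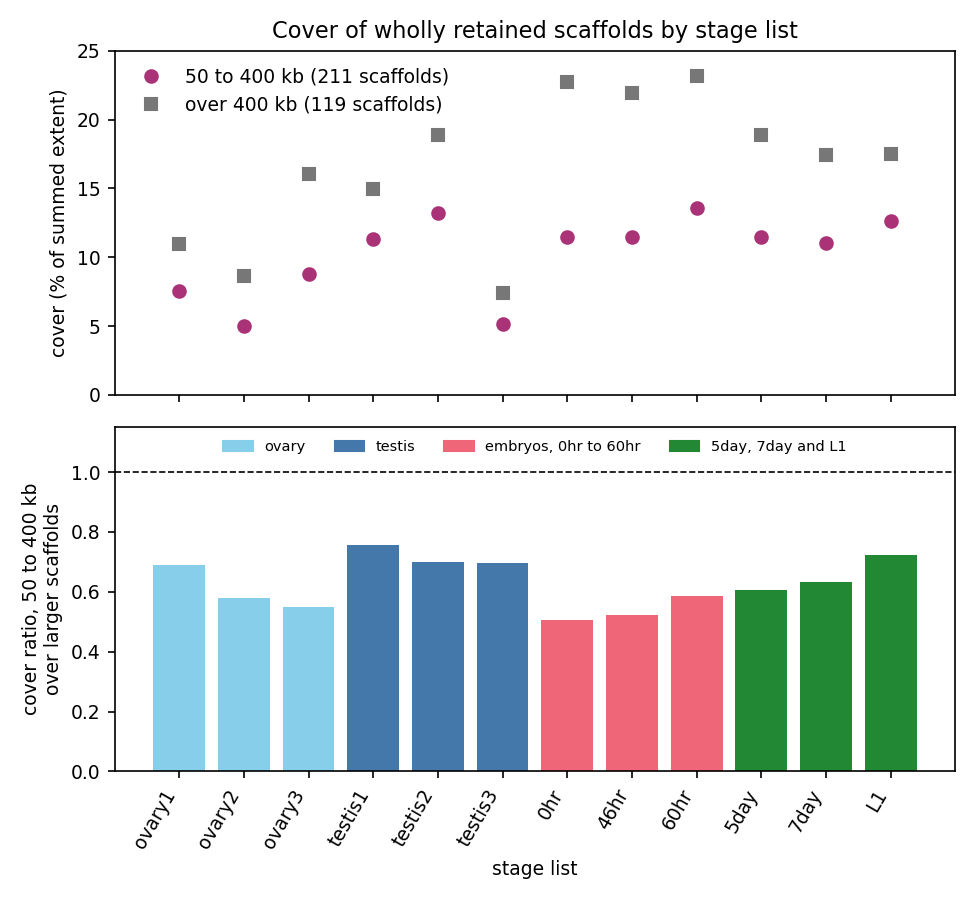
The upper panel plots summed CENP-A cover (percent of summed extent) in each of the 12 stage lists, with circles for the 211 small retained scaffolds and squares for the 119 larger ones. The bars below give the ratio of small to larger scaffolds, which stays under the dashed line at 1 in every list and is lowest at 0hr.

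By class mean the ratio of small to larger scaffolds was lowest in the hours lists, although ovary3 (0.549) and ovary2 (0.578) lay below 60hr (0.586). The geometric mean of the ratio was 0.537 in the hours lists, 0.653 in the late lists and 0.657 in the gonad lists. The difference of hours lists from gonad lists was -0.29 on the log2 scale, with an exact permutation p of 0.0714 over 84 splits of the lists (0.143 after adjustment), so it did not pass. Without ovary3 it was -0.34 and without 60hr -0.35, each with an exact unadjusted p under the threshold (0.0357 without either list). Without 60hr that is the smallest p the splits allow. Both lists lay against the difference, and p-values without each other list are not given here. Late lists differed from hours lists by 0.28 with an exact p of 0.1, the smallest that 20 splits allow, and from gonad lists by -0.01 with an exact p of 0.988.

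The share of reads in peaks also varied by stage. The small retained scaffolds held 5.86% of all reads in peaks at 0hr (95% Wilson interval 5.84 to 5.87%), 6.35 and 7.27% at the next 2 embryo times, and 6.87, 8.31 and 9.31% in the 5day, 7day and L1 lists. In the gonads the share was 7.19% in ovary3, 8.24% in ovary2, 9.29% in testis3, 9.41% in ovary1, 9.57% in testis2 and 9.94% in testis1 (interval 9.92 to 9.96%). The lowest shares were thus those of 0hr and 46hr, while 60hr and ovary3 lay close together. Intervals cover counting error only. Much of the higher share at 7day and in L1 lay on scaffold 188 (275 kb), named after its values were seen. It held 52743 and 11849 reads in the 2 columns at 7day, of 355656 and 84817 on all small scaffolds. In L1 it held 16187 and 58019, of 121800 and 403944. At 5day it held 2536 and 9518, of 323064 and 1019621.

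Peaks on the small scaffolds were slightly narrower, and there were fewer of them per Mb. Their median width was 0.932 times that on larger scaffolds (geometric mean over the lists), smaller in 9 of 12 lists, with an exact sign-flip p of 0.00977 (0.0293 after adjustment). It was 2.41 kb against 2.99 kb on larger scaffolds at 5day, where they were furthest apart, and 1.67 kb against 1.56 kb in ovary1, where small scaffolds had the wider peaks. Peaks per Mb numbered 49.4 against 82.3 on larger scaffolds at 0hr, and 36.5 against 41.6 in L1. Median reads per kb of peak differed little between the scaffold groups, 0.976 times as many on the small ones (exact sign-flip p = 0.132, 0.158 after adjustment), and 5day, 7day and L1 had the lowest ratios at 0.909, 0.912 and 0.902. Without ovary1, the list with the highest ratio (1.07), the unadjusted exact p for reads per kb was 0.0400. The p-values without each other list are not given here. Peak widths on the small scaffolds ran from 1 bp to 33.7 kb, and 373 peaks (2.54%) were under 200 bp.

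Within the 50 to 400 kb range, cover in the hours lists was not higher on longer scaffolds. Scaffolds of 200 to 400 kb (58 of them) had 11.4 ± 1.21% in the hours lists (SD, n = 3), those of 100 to 200 kb (85) 12.6 ± 0.782%, and those of 50 to 100 kb (68) 13.7 ± 2.25%. Beyond that range it was 17.1 ± 0.926% on 46 scaffolds of 400 to 1000 kb and 23.6 ± 0.631% on 73 scaffolds over 1000 kb. In the late lists the 3 size ranges within 50 to 400 kb had 11.3 ± 0.921, 11.7 ± 0.860 and 13.01 ± 1.10%, from long to short. In the gonads they had 9.29 ± 3.21, 7.63 ± 3.27 and 8.17 ± 3.89% (SD over lists, n = 6). Within lists, scaffolds of 200 to 400 kb had more cover than those of 100 to 200 kb in 6 of 6 gonad lists, 0 of 3 hours lists and 0 of 3 late lists.

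**Figure D2:**
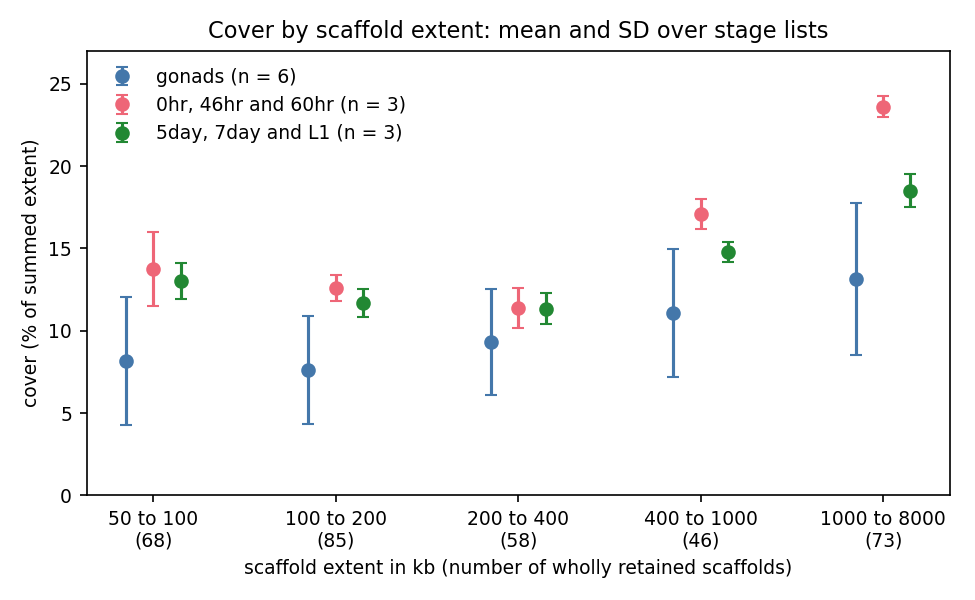
Summed cover (percent of extent) of wholly retained scaffolds in 5 ranges of scaffold extent (kb, number of scaffolds in brackets), as mean and SD over the 6 gonad, 3 hours and 3 late lists. The ranges up to 400 kb lie at 11.4 to 13.7% in the hours lists, and the ranges beyond at 17.1 and 23.6%.

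The scaffolds next to the limits of the size range had low to middling cover. Just inside the lower limit, scaffold 410 (50.1 kb) had a mean cover of 15.3% over the 12 lists and scaffold 350 (50.1 kb) 2.56%, and just outside it scaffolds 428 and 426 (both 49.9 kb) had 2.20 and 0.438%. Just inside the upper limit, scaffolds 152 and 150 (394 and 395 kb) had 14.4 and 12.8%, and just outside it scaffolds 147 and 149 (405 and 408 kb) had 12.7 and 10.996%.

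Many small retained scaffolds had peaks in only some stages. A peak was present in all 12 lists on 51 of them (24.2%), against 113 of 119 larger scaffolds. Shorter scaffolds give less room for a peak, and how far that accounts for the difference was not tested. The number of small scaffolds with no peak in a list was 49, 47 and 40 at 0hr, 46hr and 60hr and 32, 59 and 33 at 5day, 7day and in L1. In the gonads it was 85, 87 and 57 in ovary1 to ovary3 and 50, 30 and 78 in testis1 to testis3, so ovary2 lacked peaks on the most scaffolds and testis2 on the fewest. On larger scaffolds at most 3 lacked a peak in any list. Over classes, 170 small scaffolds had a peak in gonads, hours lists and late lists, 12 in gonads and late lists, 11 in gonads and hours lists, and 8 in hours and late lists. Another 8 had peaks in gonads alone, scaffold 324 in an hours list alone and scaffold 372 in late lists alone.

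**Figure D3:**
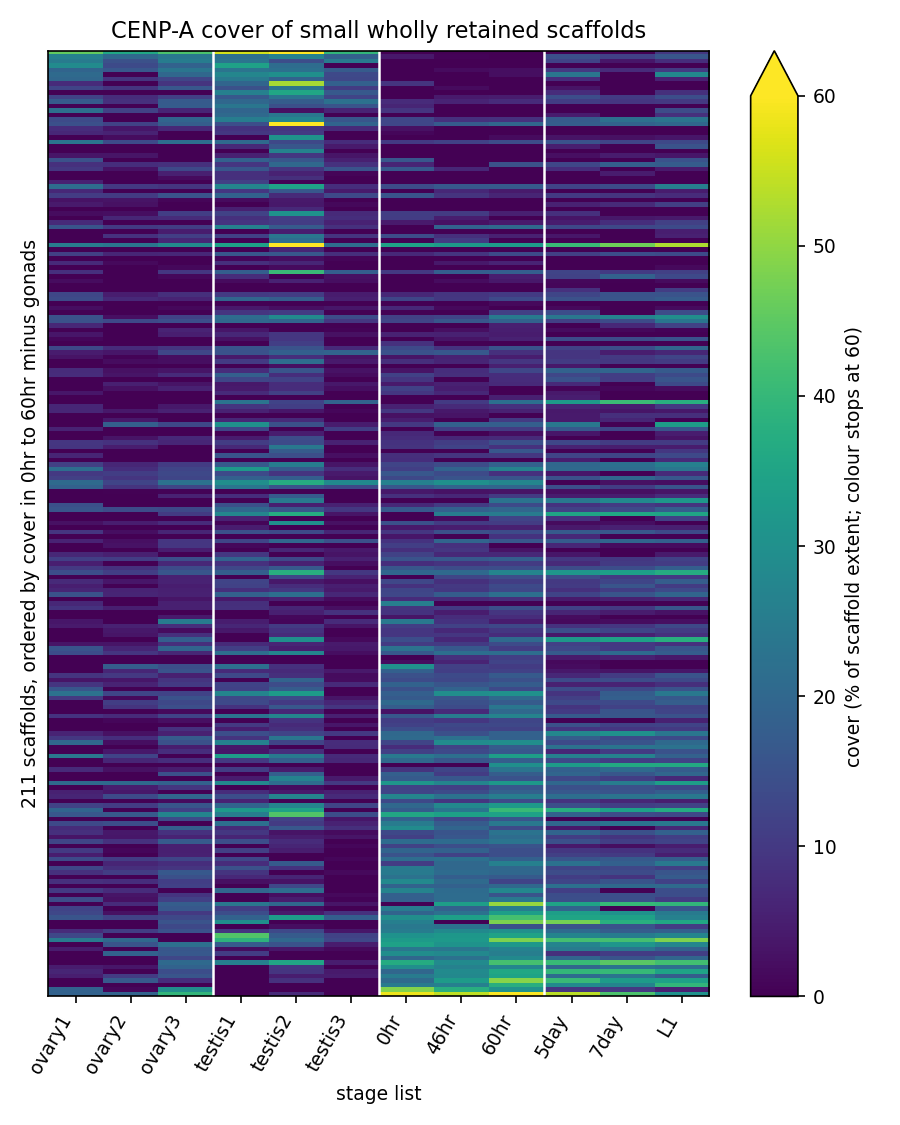
Cover (percent of extent, colour, which stops at 60%) of the 211 small retained scaffolds, 1 row each, in the 12 stage lists, with rows ordered by mean cover in the hours lists minus that in the gonad lists. White lines part ovary, testis, hours and late lists. The top rows are bright in gonads and dark at 0hr, 46hr and 60hr, and the bottom rows are the reverse.

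The shares of bases that recurred between stages were smaller on the small scaffolds than on larger ones, as was cover itself. A peak of at least 1 list covered 36.1% of the summed extent, against 49.9% of larger scaffolds. Of the covered bases, 20.1% were in peaks of 6 or more lists, against 27.7% on larger scaffolds, and 0.400% were in peaks of all 12 lists, against 0.929%. Of the bases in any late peak on the small scaffolds, 63.8% also lay in a peak of an hours list, against 81.2% on larger scaffolds, and hours peaks held 51.0% of the bases in gonad peaks, against 64.8%. These shares are descriptions, and they depend on the total peak length of the lists and on the cover of each scaffold group. Hours peaks spanned 6.71 of 33.0 Mb on the small scaffolds and 67.0 of 194 Mb on larger ones. Whether positions recurred less for their cover was not tested.

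Mean cover over the 12 lists ranged widely among the small scaffolds. The highest was on scaffold 327 (107 kb) at 37.0%, with 34.3, 32.5 and 32.2% at 0hr, 46hr and 60hr, 40.7, 46.7 and 52.6% at 5day, 7day and in L1, and a lowest, median and highest of 21.5, 26.9 and 71.5% in the gonads. Scaffold 351 (82.5 kb) followed at 32.8% and scaffold 331 (96.0 kb) at 30.2%. The highest cover of a list was on scaffold 333 in testis1, testis3 and all 3 ovary lists, on scaffold 351 at 0hr, 46hr, 60hr and 5day, and on scaffold 327 in testis2, 7day and L1. The lowest means were on scaffold 347 (94.7 kb) at 0.0914%, with 1.08% at 5day and 0.0190% in testis2 and no peak elsewhere, on scaffold 324 (99.8 kb) at 0.130%, with 1.55% at 60hr alone, and on scaffold 317 (112 kb) at 0.360%, with 1.12, 2.29 and 0.904% in testis1 to testis3 alone.

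The next comparison set embryos of the first 60 hours against the gonads, scaffold by scaffold. Cover was higher in the hours lists on 54 of 204 small scaffolds tested (26.5%) and lower on 12 (5.88%), by limma on cover with Benjamini-Hochberg adjustment over all 459 scaffolds tested. Over all 459 the shares were 31.6% higher and 3.7% lower. The share called higher was thus below that of all scaffolds and the share called lower above it; on larger scaffolds 60 of 119 (50.4%) were higher and 1 (0.84%) was lower. The median difference was 4.09 percentage points on the small scaffolds and 5.17 points over all tested. The hours lists held more cover genome-wide. With all lists scaled to the same covered length, 14 of 204 small scaffolds were called higher and 16 lower, against 41 and 35 of all 459 tested. The median difference was then -0.226 points (-0.989 over all tested). With unscaled lists and without 60hr, 34 small scaffolds were called higher, with no count over all scaffolds beside it. By edgeR on reads in peaks, 8 of 202 small scaffolds were higher (3.96%, against 7.78% of 437 tested) and 5 lower (2.48%, against 4.12%). Of the 12 called lower on cover, 11 were also called lower with scaled lists and 9 when any 1 list was left out. Of the 54 called higher, 14 were also called higher with scaled lists and 32 when any 1 list was left out.

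**Figure D4:**
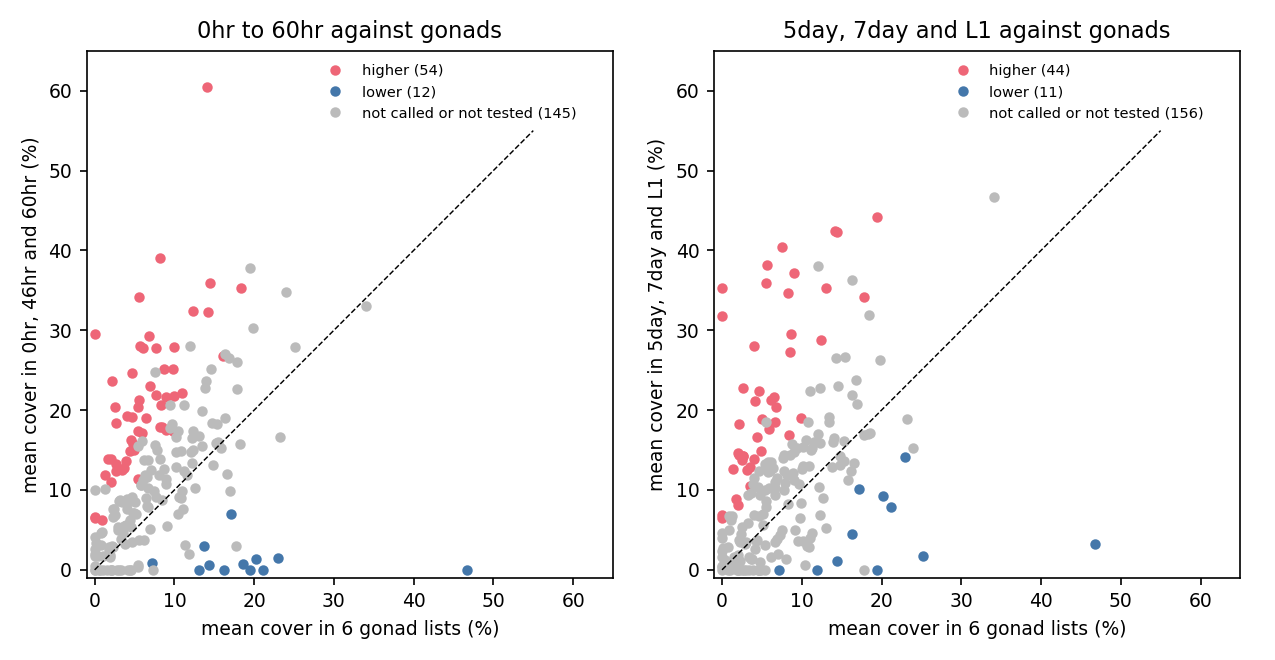
Mean cover (percent of extent) of each small retained scaffold in the hours lists (left) and the late lists (right) against its mean in the 6 gonad lists, with the dashed line marking equal cover. Red points were called higher by limma on cover (54 and 44 scaffolds), blue points lower (12 and 11), and grey points were not called or not tested. The blue points of the left panel lie at a mean of at most 6.94% in the hours lists.

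Scaffolds that fell in the hours lists had little or no cover there. Mean cover of the 12 scaffolds was 0 to 6.94% in the hours lists (median 0.675%), against 7.18 to 46.7% in gonads (median 17.9%). On 9 of the 12 the lists of both classes did not overlap. They were called for a difference between these same lists, so that count follows in part from the call. Its share over all scaffolds is not given here. Scaffold 333 (93.7 kb) had no peak at 0hr, 46hr or 60hr, against a lowest, median and highest cover of 35.6, 44.2 and 61.1% in the gonads. Every gonad list was therefore above every hours list. The mean fell by 46.7 points (0% in hours lists against 46.7 ± 9.84% in gonads, SD, n = 3 and 6; limma adjusted p = 0.000155). Its longest stretch inside peaks of at least 3 gonad lists was 15.5 kb, from 38167 to 53709 on the assembly AgBionano_v1.9.

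Scaffold 241 (193 kb) likewise had no hours peak, against 14.1, 23.9 and 25.2% (lowest, median and highest) in gonads, and scaffold 185 (257 kb) none, against 9.05, 15.8 and 24.3%. The gonad and hours lists did not overlap on either, with limma adjusted p of 0.000379 for scaffold 241 and 0.00203 for scaffold 185. Reads were counted only inside each list's own peaks, so on scaffolds 333, 241 and 185 they were 0 in the hours lists. The edgeR calls of fewer reads there (adjusted p = 0.0344, 7.57e-05 and 0.0112) therefore restate the missing peaks. Gonad peaks formed a 12.2 kb stretch at 131715 to 143945 on scaffold 241 and a 9.68 kb stretch at 161511 to 171189 on scaffold 185.

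The largest losses in covered length were on scaffolds 173 and 160. Scaffold 173 (319 kb) had 3.84, 0.611 and 0% at 0hr, 46hr and 60hr, against 18.5, 23.1 and 26.7% (lowest, median and highest) in gonads. Scaffold 160 (350 kb) had 0, 1.81 and 2.30%, against 16.4, 20.7 and 23.3%. On both, all hours lists lay far below all gonad lists, and covered length fell by 68.6 kb on scaffold 173 and by 66.0 kb on scaffold 160 (limma adjusted p = 0.000155 and 0.000173). By reads in peaks neither was called by edgeR (adjusted p = 0.131 and 0.0824).

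**Figure D5:**
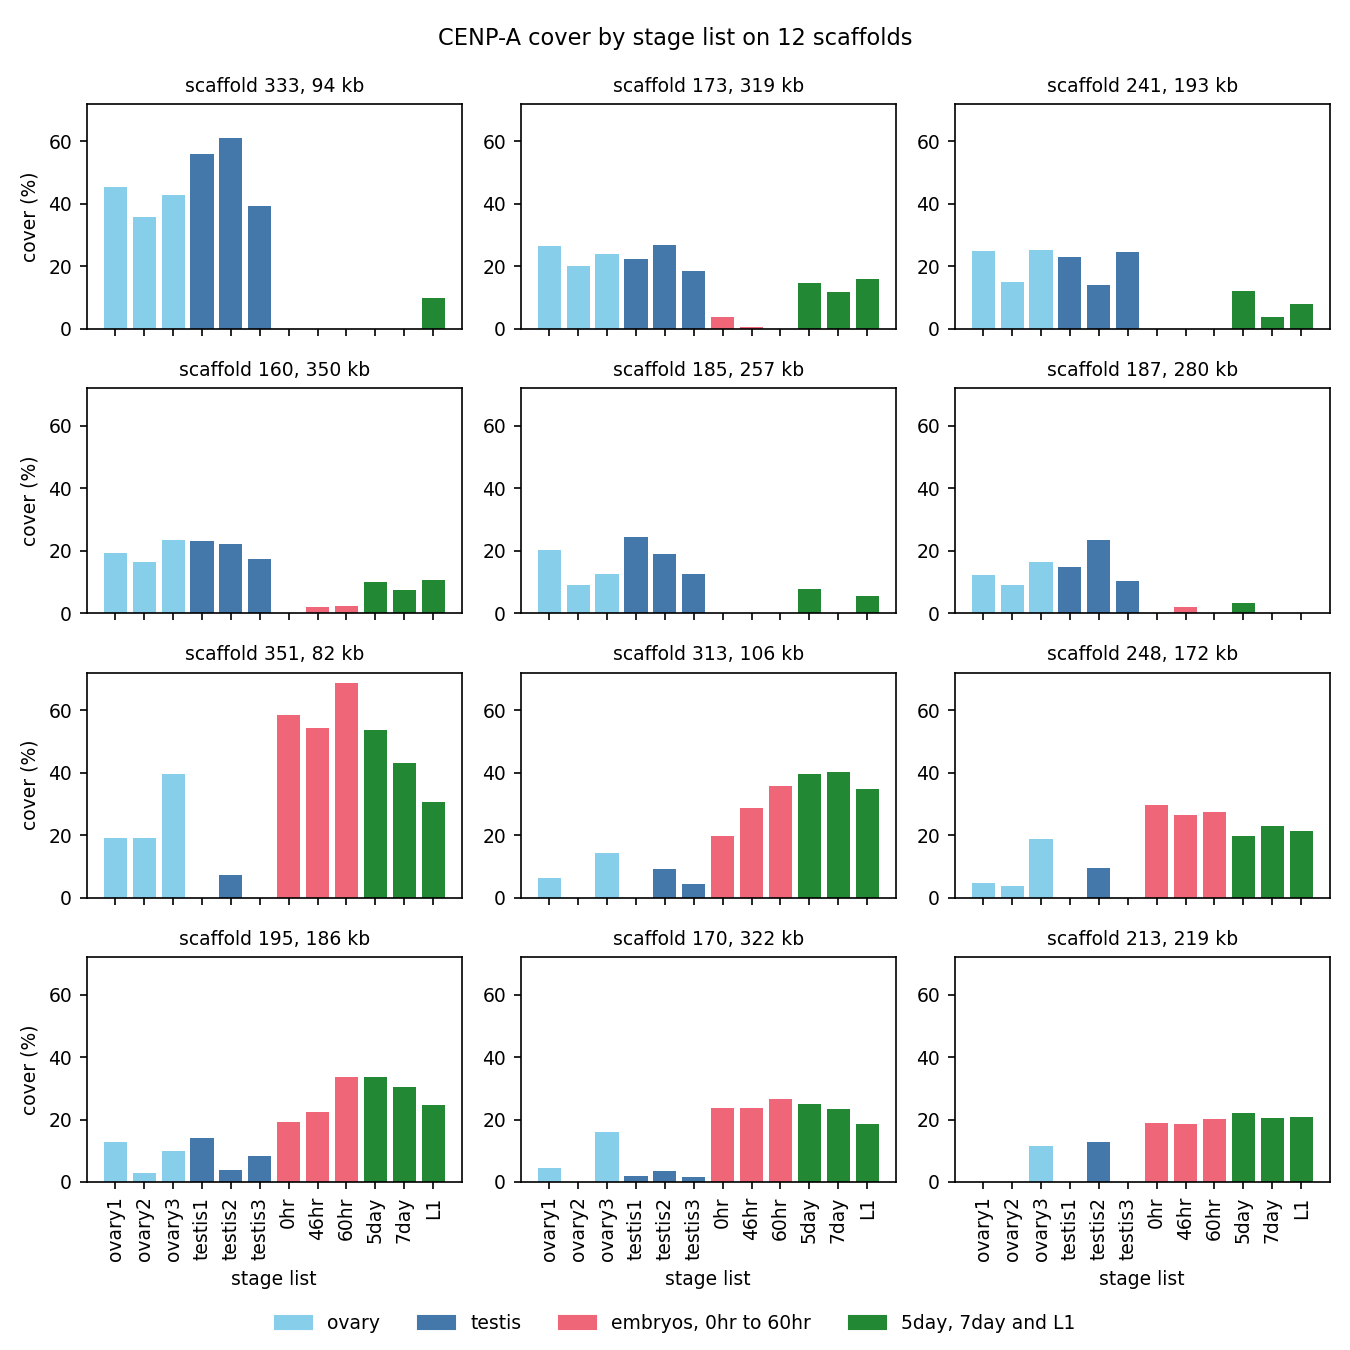
Cover (percent of extent, same scale in each panel) of 12 scaffolds in the 12 stage lists, coloured by ovary, testis, hours and late lists. The upper 6 scaffolds lie at 0 to 3.84% in the hours lists and at 9.05% or more in every gonad list. The lower 6 have a higher mean in late lists than in gonad lists.

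Scaffolds that rose in the hours lists had mean cover of 6.27 to 60.5% there (median 19.8%), against 0 to 18.4% in gonads (median 5.53%). On 42 of the 54 the lists of both classes did not overlap. That count also follows in part from the call, and its share over all scaffolds is not given here. Scaffold 351 had 58.4, 54.3 and 68.7% at 0hr, 46hr and 60hr, against 0, 13.04 and 39.6% (lowest, median and highest) in gonads. Every hours list was above every gonad list, by 46.4 points on average (60.5 ± 7.38% against 14.1 ± 15.1%, SD, n = 3 and 6; limma adjusted p = 0.000466). Its longest stretch inside peaks of at least 2 hours lists was 21.5 kb, from 50307 to 71824.

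Scaffold 170 (322 kb) had 23.6, 23.6 and 26.7% in the hours lists, against 0, 2.80 and 16.1% in gonads, a gain of 64.4 kb (adjusted p = 0.000466). Scaffold 248 (172 kb) had 29.6, 26.4 and 27.3%, against 0, 4.17 and 18.9% (adjusted p = 0.000543). Scaffold 213 (219 kb) had 19.0, 18.7 and 20.3%, against 0, 0 and 12.9% (adjusted p = 0.00454). On all 3 the hours lists lay within a narrow range above every gonad list, and the highest gonad list was ovary3 on the first pair and testis2 on scaffold 213. With scaled lists scaffold 213 was no longer called (adjusted p = 0.0511). None of scaffolds 351, 170, 248 and 213 was called by edgeR on reads in peaks (adjusted p between 0.329 and 0.780).

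Scaffold 153 (375 kb), the other of the 5 with the largest gain in covered length, had 20.2, 28.0 and 32.2% in the hours lists, against 10.8, 14.1 and 26.7% in gonads. Hours and gonad lists overlapped, and the gain of 10.7 points (limma adjusted p = 0.0336) became a loss of 1.71 points with scaled lists (adjusted p = 0.629). The call was also lost without ovary1, ovary2, 46hr, 60hr, 5day, 7day or L1, with adjusted p of 0.0633, 0.0651, 0.105, 0.166, 0.0528, 0.0547 and 0.0539.

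Scaffold 389 (60.7 kb), chosen after its values were seen, had no gonad peak at all and 24.9, 26.0 and 37.6% at 0hr, 46hr and 60hr (limma adjusted p = 0.000155). It kept a similar level in the late lists, with 28.7, 27.1 and 39.6% at 5day, 7day and in L1. By reads in peaks it was higher in the hours lists by edgeR (adjusted p = 0.00278). With no gonad peak there were no gonad reads to count, so that call restates the missing peaks.

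The late lists were compared with the same 6 gonad lists, which this comparison shares with the preceding one. Cover was higher in late lists on 44 of 204 small scaffolds (21.6%, against 20.5% of all tested) and lower on 11 (5.39%, against 4.14%), shares near those of all scaffolds. The median difference was 3.34 points on the small scaffolds and 3.54 points over all tested. With scaled lists 35 were higher and 20 lower, against 73 and 45 of all 459 tested, and the median difference was 0.551 points (-0.374 over all tested). Without 5day, 7day or L1 the count of higher small scaffolds was 22, 23 or 24 and that of lower ones 6, 4 or 5. Without testis3 that of lower ones was 17. Counts over all scaffolds with a list left out are not given here. By edgeR on reads in peaks 13 of 202 were higher (6.44%, against 10.8%) and 9 lower (4.46%, against 7.32%).

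Of the 5 scaffolds with the largest gain of covered length, scaffold 313 (106 kb) had the largest gain in percentage points, with 39.7, 40.1 and 34.8% at 5day, 7day and in L1, against 0, 5.26 and 14.2% (lowest, median and highest) in gonads (32.5 points, limma adjusted p = 0.000245). Scaffold 195 (186 kb) had 33.7, 30.3 and 24.5%, against 2.80, 9.18 and 14.1% (adjusted p = 0.00290). Scaffold 170 had 25.1, 23.3 and 18.6%, against 0, 2.80 and 16.1% (adjusted p = 0.00270). On these 3 scaffolds every late list lay above every gonad list.

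Scaffold 213 had 22.1, 20.5 and 20.8% in the late lists, against at most 12.9% in gonads, where 4 lists had no peak on it (limma adjusted p = 0.00362). Scaffold 159 (374 kb) had 18.9, 19.6 and 17.1%, against 2.70, 5.36 and 15.5% (adjusted p = 0.0130). Classes did not overlap on either. The call of scaffold 159 was lost without 5day (adjusted p = 0.0587) or 7day (0.0628), and in the hours lists it had 3.23, 7.96 and 12.7%, inside the range of the gonads.

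Scaffolds lower in late lists than in gonads differed in how many late lists held a peak, from none to all 3. Scaffold 333 had no peak at 5day or 7day and 9.75% in L1, against at least 35.6% in gonads (limma adjusted p = 0.000207). Scaffold 187 (280 kb) had 3.21, 0 and 0%, against 9.09, 13.6 and 23.4% in gonads (adjusted p = 0.00634), and 0, 1.83 and 0% at 0hr, 46hr and 60hr. Both thus stayed low from 0hr through L1. Scaffold 160 had 9.98, 7.28 and 10.5% in the late lists, against at least 16.4% in gonads (adjusted p = 0.00409).

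Scaffold 185 had 7.84, 0 and 5.48% in late lists, against at least 9.05% in gonads (limma adjusted p = 0.0166); the call was lost without 7day (0.0991) or L1 (0.0564). Scaffold 173 had 14.7, 11.7 and 15.9%, against at least 18.5% in gonads (adjusted p = 0.0206); the call was lost without 5day (0.0750), 7day (0.120) or L1 (0.0558). On both scaffolds all late lists lay below all gonad lists.

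Between late and hours lists the number of scaffolds that passed depended on the fit. Cover was higher in late lists on 5 of 204 small scaffolds (2.45%, against 1.96% of all tested) and lower on 6 (2.94%, against 3.49%). With scaled lists the counts were 3 higher and 0 lower, against 8 and 2 of all 459 tested. With only the classes compared in the fit it was 16 higher and 24 lower. Without testis2, testis3 or ovary3 it was 11, 11 or 9 higher, and without testis2 or testis3 10 or 11 lower. Without 0hr, 46hr, 5day, 7day or L1 it was 0, 0, 2, 1 or 0 higher and 1, 1, 2, 1 or 1 lower. Apart from the scaled fit, these changes cannot be set against all scaffolds, whose counts are not given here. The median difference was -0.610 points, against -1.93 points over all tested, and 1.22 points with scaled lists (0.207 over all tested). By edgeR on reads in peaks 1 of 202 was higher (0.495%, against 0.229%) and 1 lower (0.495%, against 0.915%). The one that rose by reads was scaffold 241, with no hours peak and 12.1, 3.60 and 7.85% cover at 5day, 7day and in L1, and the one that fell was scaffold 153 (edgeR adjusted p = 0.000117 and 0.0309). Scaffold 241 had no hours reads to count, so its rise by reads restates the missing peaks.

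The 5 scaffolds that rose by cover were 173, 251, 300, 402 and 412. Scaffold 412 (52.1 kb) had 32.9, 36.5 and 36.5% in the late lists, against 0% at 0hr and 46hr and 29.9% at 60hr (limma adjusted p = 0.0319), and no gonad peak. Its late peaks shared a stretch of 16.9 kb, from 35086 to 52016. Scaffold 402 (55.8 kb) had 32.7, 40.9 and 37.9%, against 0, 10.3 and 22.1% (adjusted p = 0.0128). Both had no peak at 0hr and their highest hours value at 60hr, and every late list was above every hours list.

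Scaffold 300 (127 kb) had 11.8, 18.7 and 13.2% in the late lists, against 0, 0 and 4.79% in the hours lists (limma adjusted p = 0.0236). Scaffold 251 (172 kb) had 13.8, 13.9 and 15.5%, against 0, 3.27 and 5.57% (adjusted p = 0.0319). Scaffold 173 had 14.7, 11.7 and 15.9%, against 3.84, 0.611 and 0%, and was the only one of the 5 whose hours values were lower at each later time (adjusted p = 0.0236). Each of the 5 calls depended on which lists entered the fit, while the differences kept their direction at 9.96 to 26.5 points in the fits that lost a call. All 5 were lost without 0hr (adjusted p from 0.0539 to 0.132), 46hr (0.0514 to 0.134), 7day (0.0557 to 0.100) or L1 (0.0568 to 0.108). Some were also lost without 5day (scaffolds 173, 251 and 412, 0.0784 to 0.0873), 60hr (scaffold 173, 0.0659) or ovary1 (scaffold 251, 0.0534).

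Among the 6 that fell, scaffold 355 (75.1 kb) had 0, 2.80 and 2.32% at 5day, 7day and in L1, against 26.3, 30.2 and 27.4% at 0hr, 46hr and 60hr (limma adjusted p = 0.00331), and kept the call when any 1 list was left out. In gonads it had 12.4 to 37.1%, so that only the late lists were low. Scaffold 369 (64.2 kb) had 9.37, 9.91 and 5.28%, against 48.9, 37.5 and 30.6% (adjusted p = 0.0195). Scaffold 330 (53.8 kb) had 8.19, 10.6 and 11.1%, against 29.4, 28.1 and 25.8% (adjusted p = 0.0398).

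Scaffold 198 (252 kb) had 5.39, 5.97 and 8.11% in late lists, against 18.9, 15.9 and 17.4% in hours lists (limma adjusted p = 0.0250), and scaffold 186 (266 kb) 4.20, 2.30 and 4.88%, against 11.8, 14.4 and 15.4% (adjusted p = 0.0491). No late list reached an hours list on any of these scaffolds. Without 0hr, 46hr, 7day or L1 the calls of scaffolds 369, 330, 198 and 186 were lost, with adjusted p from 0.0514 to 0.176. Without 60hr (0.0512 to 0.0868) or 5day (0.105 to 0.136) those of 330, 198 and 186 were lost, and without testis1, ovary1 or ovary2 that of 186 (0.0593 to 0.0766).

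Ovary and testis differed on few small scaffolds. By limma on cover none of 204 was higher in ovary (0.218% of all tested) and 1, or 0.49%, was lower (0.218% of all tested). At an unadjusted limma p under 0.05, 5 were higher and 22 lower, against 12 higher and 3 lower of 119 larger scaffolds. Unadjusted counts over all tested are not given here. By edgeR on reads in peaks 1 of 202 was higher (0.495%, against 5.26%) and 2 lower (0.99%, against 0.458%). DESeq2 called 5 higher and 12 lower, and its shares over all scaffolds are not given here. With scaled lists limma called 3 higher and 6 lower, against 25 higher and 7 lower of all 459 tested. On the 119 larger scaffolds it called 15 higher and 0 lower. With unscaled lists the median difference was -2.53 points on the small scaffolds, -2.80 on the larger ones and -2.18 over all tested, the same direction in each. The reads of both testis3 libraries correlated less over peaks on the small scaffolds (r = 0.519 of log reads per kb) than those of the other lists (0.817 to 0.925). Without testis3 the count of lower small scaffolds was 15, with no count over all scaffolds beside it. Summed cover was 7.12 ± 1.95% in ovary and 9.91 ± 4.21% in testis (SD, n = 3 each).

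Scaffold 415 (51.8 kb) was the one called lower. It had no ovary peak, against 26.2, 35.6 and 16.8% in testis1 to testis3 (limma adjusted p = 0.00956; by edgeR on reads it was not called, adjusted p = 0.102), no hours peak, and 7.66, 0 and 8.11% at 5day, 7day and in L1. Scaffolds 351 and 199 had the largest gains of covered length in ovary, and neither passed the test with unscaled lists. Scaffold 351 had 18.9, 19.1 and 39.6% in ovary1 to ovary3, against 0, 7.14 and 0% in testis1 to testis3 (adjusted p = 0.272), and was called with scaled lists (adjusted p = 0.00417). Scaffold 199 (248 kb) had 15.6, 6.29 and 19.2%, against 11.1, 4.85 and 3.89% (adjusted p = 0.483).

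No peak was present at 0hr, 46hr and 60hr on 21 of the 211 small retained scaffolds, which span 2.58 Mb with a median extent of 107 kb. None of the 119 larger retained scaffolds lacked peaks in all 3 hours lists, but 99 of 207 wholly retained scaffolds under 50 kb did. So did 1 of 40 scaffolds with both marks and 2 of 23 wholly eliminated ones. Of the 21, 8 are among the 68 of 50 to 100 kb, 10 among the 85 of 100 to 200 kb and 3 among the 58 longer ones. For scale, 20 small scaffolds lacked any late peak, 31 any ovary peak and 15 any testis peak, so that scaffolds without an hours peak were about as many as those without a late one. These 21 were chosen by the hours lists, so their values are given as a description.

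All but 1 of the 21 had gonad peaks: 20 had a testis peak, 12 an ovary peak and 13 a late peak. Peaks were in both gonads and late lists on 12 of them, in gonads alone on 8, of which 4 in testis alone, and in late lists alone on 1. Their summed cover was 2.97 ± 1.37% in late lists and 7.74 ± 2.92% in gonads (SD, n = 3 and 6). The other 190 small scaffolds had 12.5 ± 0.814% in late lists and 8.58 ± 3.36% in gonads. Gonad cover was uneven among the 21: scaffolds 185, 241, 298 and 333 held 73.6% of the covered length, and the remaining 17 had a summed gonad cover of 2.73%. The median over scaffolds of mean gonad cover was 3.04% for the 21 and 6.76% for the other 190, and that of mean late cover was 1.56 and 12.3%.

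Of the 8 longest scaffolds without an hours peak, 185 and 241 are described above. Scaffold 212 (233 kb) had 2.53, 4.65 and 3.71% at 5day, 7day and in L1 and 0, 3.49 and 9.73% (lowest, median and highest) in gonads. Scaffold 224 (210 kb) had 5.70, 7.11 and 11.4% in late lists and 0, 2.03 and 4.44% in gonads, and its late lists all lay above its gonad lists (limma adjusted p = 0.0421 for late lists against gonads). This call was lost without testis1 (0.0796), ovary1 (0.0509), ovary2 (0.0637), ovary3 (0.0620), 46hr (0.0667), 60hr (0.0535), 5day (0.0587), 7day (0.0831) or L1 (0.181), and with scaled lists (0.112). Scaffold 275 (147 kb) had 0, 4.67 and 0% in late lists, with 5.23% in ovary3 and 8.35, 5.64 and 0.741% in testis1 to testis3.

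The remaining 3 had no late peak. Scaffold 274 (143 kb) had 2.94, 3.18 and 0.804% in ovary1 to ovary3 and 1.72, 4.19 and 0% in testis1 to testis3. Scaffold 211 (169 kb) had 5.16, 6.88 and 0% in testis1 to testis3, and scaffold 210 (135 kb) had 6.10% in testis2 alone. Neither had an ovary peak. Together with scaffold 317 they are the longest with peaks in testis alone.

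Scaffolds with much gonad cover and none later were few. Scaffold 298 (105 kb), named after its values were seen, had 29.0, 13.4 and 18.8% in ovary1 to ovary3, 34.5, 21.2 and 0% in testis1 to testis3, and no peak in any hours or late list. It was lower in late lists than in gonads (limma adjusted p = 0.0300), a call that was lost without ovary1 (0.0589), 5day (0.0930), 7day (0.0871) or L1 (0.0926). Scaffold 372 (60.2 kb) had 8.47, 0 and 10.9% in late lists and no peak in any other. Read density in the gonad peaks of scaffolds 333, 241 and 185 was 1.01 to 2.06, 1.23 to 1.97 and 1.07 to 1.68 times the median of peaks in the same list. Of the 20 scaffolds without an hours peak that had gonad peaks, 12 lay above the median of their list in every such list, 6 below it in every such list and 2 on both sides. Some had gonad peaks in only 1 list, among them scaffold 347 of the 12, whose single gonad peak was 0.018 kb wide. Such counts for the other small scaffolds are not given here, so these are a description only.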

How the data were processed

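The submitters' processing notes list Bowtie2 and MACS2; their versions and settings are not given in the sources used here. The deposited tables list, per the file headers, the position of every peak, its coverage in 2 replicates and whether it was retained or eliminated. The coverage columns are read counts per peak as deposited by the authors, not normalized; which column is the single-end library, and whether starts count from 0 or 1, is not stated. Of 62 samples, the 24 CENP-A libraries are used here; input, CENP-C and histone mark libraries, mapped-read totals and the assembly's sequence were not analysed here. Both libraries of a stage share its peak set, and nothing says that libraries came from separate animals, so p-values measure the spread between stage lists. The labels give no batch, so no within-batch values could be had.

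Lengths are end minus start. Cover of scaffolds of at least 20 kb with a mean cover of at least 1% was tested with limma 3.58.1 (trend, robust), and reads in peaks, both columns summed, with edgeR 4.0.16 (quasi-likelihood, TMM), in R 4.3.3; all 12 lists entered each fit with 4 classes, and Benjamini-Hochberg adjustment ran over all scaffolds tested (threshold 0.05). Of the 211 scaffolds, 204 passed the filter for limma and 202 that for edgeR. The design put limma on cover first, with edgeR beside it. Reads were counted only inside each list's own peaks, so edgeR is not independent of cover. Both fits were tested on simulated data. The simulation for limma raised low mean covers above those of most small scaffolds, so it does not show how that fit behaves with low cover or empty lists. Ratios of scaffold groups were compared with two-sided exact sign-flip and exact permutation tests (numpy 2.4.6). Scaffolds were named by rule: the 8 longest without an hours peak; the 5 called with the largest difference of covered length in each direction of each contrast, or the 2 largest not called; the 3 highest and 3 lowest mean covers; the 2 on each side of each limit; and the 3 longest with peaks in 1 of the 4 classes. Exceptions are said to be chosen after their values were seen. The scaffolds, lists and tests were chosen with earlier results of these data known. Alternatives were another scaling, filter, transformation, size range, density minimum, DESeq2 1.42.0 and single lists left out.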

Additional observations from a re-analysis of the deposited data

Results flagged for a closer look

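Among the 6 gonad lists, 1 list stood far from the other 5 in cover on 7 of 42 scaffolds examined, by Dixon's gap test; chance flags about 1 in 20 groups of continuous values. That rate does not hold where 5 lists are at 0, since any value then stands apart, as on scaffolds 210, 347 and 350. On scaffold 170 ovary3 had 16.1%. On scaffold 210 testis2 had 6.10% and the others none. On scaffold 251 testis2 had 9.38%, and on scaffold 300 testis1 had 7.70%. On scaffold 327 testis2 had 71.5%, the highest cover of any small retained scaffold in any list. On scaffold 347 testis2 had 0.0190%, a single narrow peak, and the others none, and on scaffold 350 ovary1 had 6.65% and the others none.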

How the results depend on the processing

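The ratio of small to larger scaffolds kept its direction and its call under every alternative run, with log2 means of -0.63 to -0.79 where the size range, the mean or the peaks were changed. Its difference of hours from gonad lists was -0.34 with members of 100 to 400 kb and -0.41 with peaks of at least the median density, both past the threshold unadjusted, and -0.35 to -0.25 with 1 list left out. For late against gonad lists it was 0.0615 with members of 50 to 300 kb, 0.134 as a mean over scaffolds, -0.30 with denser peaks (past the threshold unadjusted), and -0.0845 to 0.0432 with 1 list left out, being above 0 without testis1, testis2, testis3, ovary1, 5day or 7day. The log2 ratio of reads per kb was 0.0496 with denser peaks, and -0.0466 to -0.0248 with 1 list left out. Scaffolds without an hours peak numbered 13 of those of 100 to 400 kb.

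Counts by limma on cover moved as follows. Counts here and in the next paragraph are of small scaffolds only, so they do not show whether a shift is particular to them. With scaled lists, hours against gonads gave 14 higher, late against gonads 20 lower, late against hours 3 higher and 0 lower, and ovary against testis 3 higher and 6 lower. With members of 100 to 400 kb, late against gonads gave 24 higher, late against hours 3 higher and 2 lower, and ovary against testis 0 lower. With only the classes compared, late against gonads gave 7 lower, late against hours 16 higher and 24 lower, and ovary against testis 0 lower. Arcsine-transformed cover gave 2 lower for late against hours and 2 lower for ovary against testis. Denser peaks gave 9 higher for late against hours and 0 lower for ovary against testis. With 1 list left out, hours against gonads gave 34 to 69 higher; late against gonads 22 to 54 higher and 4 to 17 lower; late against hours 0 to 11 higher and 1 to 11 lower; and ovary against testis 1 to 15 lower. The gain of scaffold 153 became -1.71 points with scaled lists.

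By reads, DESeq2 gave 20 higher and 17 lower for hours against gonads, 23 and 26 for late against gonads, 9 and 12 for late against hours, and 5 and 12 for ovary against testis. The first read column alone gave 0 lower for late against hours. With 1 list left out, edgeR gave 4 to 10 higher and 3 to 7 lower for hours against gonads, 4 to 13 and 4 to 10 for late against gonads, 1 to 3 and 0 to 2 for late against hours, and 1 to 3 and 2 to 6 for ovary against testis.

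Same-numbered ovary and testis lists correlated at 0.367, 0.0516 and 0.215 in their deviations, not all over 0.1, so the number was not treated as a pairing; 6 of 6 gonad lists correlated best with their own number, a hint from the data. With the number as a replicate block, ovary against testis gave 0 higher and 0 lower by limma and by edgeR. The cause of these changes was not tested. Depth is known only within peaks, which limits what an absent peak shows: it says that no peak was listed, not that CENP-A was absent.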
